A study of Mus musculus with 6 samples.

Results

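The cells described here were 120 of 26045 kept epithelial cells of the mouse small intestine (0.461%), chosen by their UMI counts: each held at least 1 UMI of Ada and at least 1 UMI of Nt5e or Slc28a2. A UMI marks 1 captured RNA molecule. They were sought as enterocytes of the villus tip, the outer end of the finger-like folds that absorb nutrients. The gene Apoa4 and a list of upper-villus genes, given below, went against that name. They are therefore called gated cells below, after the gate that chose them. A gated cell also had at least 500 genes, at most 25% of its UMIs from mitochondrially encoded genes, and under 30 UMIs per 10000 of the goblet cell genes Zg16, Clca1, Fcgbp and Muc2 together.

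The series compared 3 libraries labelled Itgb7 KO with 3 wild-type libraries, all of 10x 3′ single-cell RNA from C57BL/6J mice aged 8 weeks. Itgb7 encodes the β7 integrin subunit, and per the title the study asked how T cells with this integrin act on the fate of intestinal stem cells. The labels give neither the number of mice behind a library nor the design of the Itgb7 allele. The p-values therefore reflect the spread of libraries and not of mice, and that spread may be technical. In the gene-wise tests it is partly shared over genes. Other enterocytes, set beside the gated cells, were the 9169 cells under the same limits with at least 1 UMI of Alpi and none of Ada. Alpi encodes intestinal alkaline phosphatase, an enzyme of the enterocyte brush border.

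Adenosine forms outside cells when the ectoenzyme CD73, the product of Nt5e, removes the phosphate of AMP. Slc28a2 encodes a sodium-coupled transporter that takes up purine nucleosides, and Ada encodes adenosine deaminase, which turns adenosine into inosine. In mouse small intestine these genes, with the apolipoprotein gene Apoa4, have been described as high at the villus tip. Stem cells and dividing cells lie at the other end, in the crypts, and enterocytes mature as they move from there up the villus.

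The 2 genes that set the gate in practice were Ada and Slc28a2, which lie on the same chromosome. Ada spans chr2:163726584-163750239 on the minus strand and Slc28a2 spans chr2:122426477-122461137 on the plus strand, in the GENCODE M21 annotation of the mm10 build. Their upstream windows, the 250 bases before the RefSeq start in build GRCm38.p6, are shown because both genes were counted in the same cells. Capitals mark CCAAT or its reverse complement ATTGG, and GGGCGG.
Ada: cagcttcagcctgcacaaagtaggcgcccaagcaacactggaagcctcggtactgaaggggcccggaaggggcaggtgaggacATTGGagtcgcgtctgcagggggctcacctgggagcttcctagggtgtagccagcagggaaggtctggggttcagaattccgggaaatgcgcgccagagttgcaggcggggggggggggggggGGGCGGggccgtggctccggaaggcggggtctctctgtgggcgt
Slc28a2: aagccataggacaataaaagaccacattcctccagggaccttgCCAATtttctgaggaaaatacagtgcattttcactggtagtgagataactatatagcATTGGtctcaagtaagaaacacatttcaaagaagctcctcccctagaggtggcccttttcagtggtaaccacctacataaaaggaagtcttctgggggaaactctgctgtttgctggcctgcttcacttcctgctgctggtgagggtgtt
The Ada window (chr2:163750240-163750489, minus strand) had a GC content of 67.2% with 1 GGGCGG and 1 ATTGG. The Slc28a2 window (chr2:122426185-122426434, plus strand) had a GC content of 45.2% with 1 CCAAT and 1 ATTGG and no GGGCGG or CCGCCC. Neither window held TATAAA or TTTATA. Of 32851 windows of the same length in the RefSeq table, 32.7% held GGGCGG or its reverse complement CCGCCC, 33.8% held CCAAT or ATTGG, and 12.4% held TATAAA or TTTATA. The median GC content of those windows was 52.4%. A match of letters is a description and not a binding site.

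The libraries differed in depth. Median UMIs per kept cell were 19537, 9291 and 6109 in libraries 1, 2 and 3 labelled Itgb7 KO, against 22384, 11929 and 12105 in wild-type libraries 1, 2 and 3. The shallowest barcode held 7754, 2729 and 1417 UMIs in those labelled Itgb7 KO, against 13621, 2946 and 2651 in wild-type, so the depth below which barcodes were missing differed between libraries. Pairs of libraries shared 12 to 42 barcode sequences. Itgb7 had 0 UMIs in the 120 gated cells. Over all cells with Alpi it had 39 UMIs in 4654 cells labelled Itgb7 KO and 3 UMIs in 5181 wild-type cells, which goes against the label of a knockout. The altered stretch of the gene is not given, and 3′ tags from outside it would not check the knockout, so the words "labelled Itgb7 KO" are kept throughout.

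The values that chose the cells were small. Ada had 1 UMI in 102 gated cells, 2 in 16 and 3 in 2. The second condition was met by Slc28a2 in 115 cells and by Nt5e in 5, and no cell held both. Over all kept cells Nt5e had only 24 UMIs, against 1147 of Slc28a2 and 2234 of Ada. Thus 93 of the 120 cells passed with exactly 1 UMI of Ada and 1 of the other gene. Just outside the gate lay 1580 cells under the same limits with Ada and neither Slc28a2 nor Nt5e, 779 of them in libraries labelled Itgb7 KO and 801 in wild-type. On the goblet limit, 18 gated cells held at least 15 UMIs per 10000 of the 4 goblet genes, with 29.5 as the highest.

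The share of gated cells was highest in the libraries with the deepest cells. The numbers were 27, 15 and 2 gated cells in libraries 1, 2 and 3 labelled Itgb7 KO, against 33, 28 and 15 in wild-type libraries 1, 2 and 3. In the libraries labelled Itgb7 KO they made up 0.967% (exact binomial 95% interval 0.638 to 1.40), 0.262% (0.147 to 0.431) and 0.0438% (0.00531 to 0.158) of kept cells. In wild-type they made up 1.19% (0.821 to 1.67), 0.555% (0.369 to 0.801) and 0.292% (0.163 to 0.481). These intervals cover counting error only. The share averaged 0.424% ± 0.483 in libraries labelled Itgb7 KO and 0.679% ± 0.462 in wild-type (SD, n = 3 each), a difference of -0.255 percentage points (exact 2-sided permutation test, p = 0.5, where 0.1 is the smallest p for 3 against 3 libraries). The groups overlapped. Between libraries of the same number the share was lower in the one labelled Itgb7 KO in 3 of 3 pairs, by similar amounts (SD of the 3 differences 0.0356 percentage points, exact 2-sided sign-flip permutation p = 0.25, the smallest that 3 pairs allow). Without wild-type library 1 alone, which breaks its pair, the difference was 0.00095 percentage points, and without both libraries numbered 1 it was -0.271. When each cell was thinned to 5000 UMIs only 14 gated cells were left, at 0.0342% ± 0.0046 in libraries labelled Itgb7 KO and 0.0731% ± 0.0335 in wild-type (SD, n = 3 each, exact permutation p = 0.2). Before thinning, the library labelled Itgb7 KO was also the shallower one in each of the 3 pairs by median UMIs per kept cell. Fewer such cells and less Ada or Slc28a2 RNA per cell cannot be told apart by this gate.

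**Figure D1:**
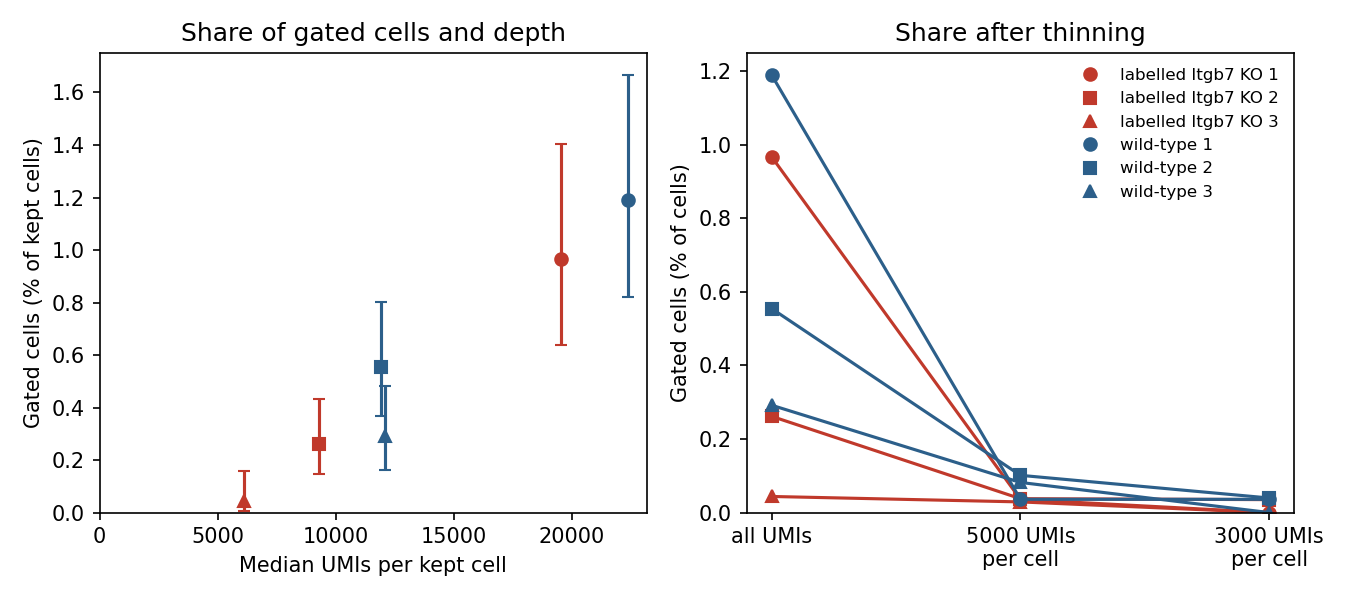
Left, gated cells as a percent of kept cells (y axis, with exact binomial 95% intervals) against the median UMIs per kept cell (x axis) in the 6 libraries. Right, the same percent with all UMIs and after thinning to 5000 and 3000 UMIs per cell; library 1 labelled Itgb7 KO (0.967%) and wild-type library 1 (1.19%) are highest with all UMIs and not after thinning.

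The gated cells did not look like cells of the villus tip. Only Apoa4, an apolipoprotein of fat-carrying particles, was named as their marker without being used by the gate. It spans chr9:46240696-46243459 on the plus strand. In gated cells Apoa4 had 36.3, 27.1 and 60.4 CPM (UMIs of the gene per 1e+06 UMIs of the summed cells) in libraries 1, 2 and 3 labelled Itgb7 KO, and 21.9, 14 and 51.0 CPM in wild-type libraries 1, 2 and 3. In other enterocytes it had 221, 294 and 155 CPM in the libraries labelled Itgb7 KO and 216, 231 and 80.0 CPM in wild-type. Apoa4 was thus lower in gated cells than in other enterocytes in all 6 libraries. The library 3 labelled Itgb7 KO had only 2 gated cells, so that 1 UMI there is worth 60.4 CPM.

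A list of 8 upper-villus genes (Apoa4, Apoc3, Creb3l3, Krt20, Clec2h, Egfr, Klf4 and Apobec1) gave the same picture cell by cell. None of the 120 gated cells had more than 15 UMIs per 10000 of this list, the highest had 10.3, the median was 1.21, and 19 cells had none. Most other enterocytes also lay below that level, with 1122 of 9169 above 15 (12.2%), and their median was 4.33. By library the median was 0.534 to 1.87 in gated cells and 3.73 to 5.96 in other enterocytes. All 120 held UMIs of the stem list (Lgr5, Olfm4, Ascl2, Smoc2 and Slc12a2), and 118 held UMIs of the cycling list (Mki67, Top2a, Birc5, Cdk1 and Ube2c). Such UMIs were also found in many other enterocytes, of which 6450 (70.3%) held the stem list and 6656 (72.6%) the cycling list at lower depths. With each cell thinned to 5000 UMIs, the stem list was found in 82.5% of 120 gated cells and 46.0% of 8880 other enterocytes, and the cycling list in 86.7% and 54.8%. The thinning left out 289 other enterocytes and no gated cell. In 70 gated cells these 2 lists together outnumbered the UMIs of the enterocyte list. Alpi was found in 36 of the 120 gated cells (30%; 14.3% to 53.3% per library, at median depths of 8275 to 27357 UMIs). Among the 4654 cells above the goblet limit, which should largely lack it, Alpi was found in 961 (20.6%; 8.44% to 29.7% per library, at median depths of 5914 to 21535 UMIs). The label of villus-tip enterocytes thus does not describe these cells, and no other cell type name is given to them. Of other cell types, T cell and B cell genes had 0 UMIs in the gated cells, with 9 of 10 and 3 of 4 listed genes in the files. Stromal and endothelial genes had 2 UMIs, erythroid genes 1 and tuft cell genes 5.

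**Figure D2:**
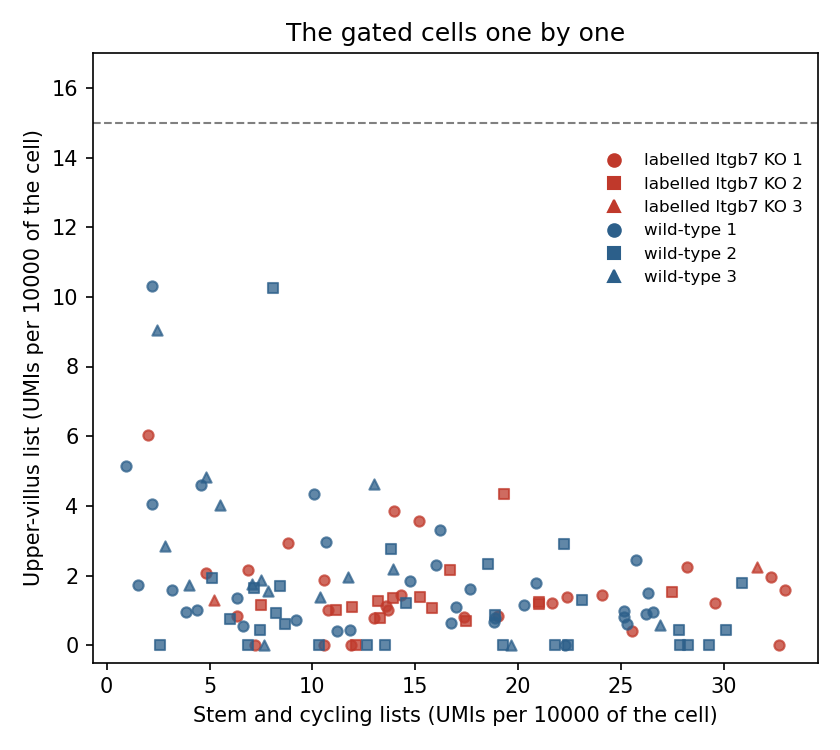
Each point is 1 of the 120 gated cells, with UMIs per 10000 of the stem and cycling lists on the x axis and of the upper-villus list on the y axis, by library. No gated cell reaches the dashed line at 15, which 12.2% of other enterocytes (not drawn) exceed, and 91 gated cells lie at or below 2 on the y axis.

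Set against other enterocytes, gated cells held more RNA of stem and dividing cells and less of nearly every absorptive program. The test needed 20 gated cells in a library, which left library 1 labelled Itgb7 KO and wild-type libraries 1 and 2, with library as a block. Of 11105 genes, 1354 were called higher in gated cells (12.2%) and 1609 lower (14.5%) by edgeR's quasi-likelihood test with Benjamini-Hochberg adjustment at 0.05. With the 5 libraries that had at least 10 gated cells, 1493 of 11007 genes were called higher (13.6%) and 1868 lower (17%). DESeq2's Wald test in the 3 libraries called 1009 of 10026 genes higher (10.1%) and 1182 lower (11.8%). The median log2 fold change over all genes was -0.01. The other enterocytes had been chosen for Alpi while the gate did not ask for it, so part of this contrast sets cells mostly without Alpi against cells with it. Gated cells were also deeper, with median UMIs of 25410, 13100 and 8275 in libraries labelled Itgb7 KO and 27357, 14260.5 and 14384 in wild-type, against 20193, 9892.5 and 6495 and against 22360, 12225 and 12497.5 in other enterocytes of the same libraries. Against 5 other enterocytes per gated cell matched on UMI total, 1177 of 7402 genes were called higher (15.9%) and 1143 lower (15.4%) in 5 libraries.

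Stem genes were higher. Of 5 tested, 4 were called higher and 0 lower, with a list median log2 fold change of 1.72. Ascl2, a transcription factor of intestinal stem cells, had 81.9, 49.7 and 60.4 CPM in gated cells of the libraries labelled Itgb7 KO and 58.7, 81.7 and 55.6 CPM in those of wild-type. In other enterocytes it had 6.42 to 14.1 CPM in libraries labelled Itgb7 KO and 14.5 to 16.8 CPM in wild-type, with no overlap between the cell classes (log2 fold change 2.25 ± 0.17 SE, adjusted p = 3.1e-06). Lgr5, the receptor for R-spondins that marks these stem cells, rose by 2.23 ± 0.23 SE on the log2 scale (adjusted p = 2.17e-05). The ion transporter gene Slc12a2 rose by 1.72 ± 0.10 SE and the matrix protein gene Smoc2 by 1.34 ± 0.12 SE. Summed over the list, stem genes reached 580 ± 212 CPM in gated cells and 179 ± 46.3 CPM in other enterocytes (SD, n = 6).

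Genes of DNA replication and mitosis rose with them. All 5 cycling genes were called higher, with a median log2 fold change of 0.74, among them the mitotic kinase Cdk1 (0.89 ± 0.12 SE) and the topoisomerase Top2a (0.74 ± 0.10 SE). The list reached 944 ± 248 CPM in gated cells and 541 ± 116 CPM in other enterocytes (SD, n = 6). The gated cells of wild-type library 3, which was not in the test, were the lowest at 473 CPM. That lies within the 327 to 638 CPM of other enterocytes over the libraries, so the classes overlapped. Among the called genes with a mean of at least 50 CPM and the same sign in each library, the largest rises included the transcription factor Sox4 (1.84 ± 0.13 SE), the Myc target Cdca7 (1.67 ± 0.11 SE), the histone chaperone Nap1l1 (1.59 ± 0.11 SE) and the replicative helicase subunit Mcm6 (1.46 ± 0.12 SE). Of 100 ribosomal protein genes tested, 62 were called higher and 2 lower, with a median log2 fold change of 0.23.

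Genes of digestion and absorption were lower. All 10 enterocyte list genes outside the gate were called lower (median log2 fold change -2.16), as were all 9 of sugar uptake (-1.87), 16 of 17 of peptide and amino acid uptake (-2.08), 15 of 18 of lipid absorption (-2.06) and all 11 of brush border structure (-1.10). Fabp1, the main fatty acid binding protein of proximal enterocytes, had 128, 416 and 0 CPM in gated cells of the libraries labelled Itgb7 KO and 179.6, 135 and 630.0 CPM in those of wild-type. In other enterocytes it had 1345, 3362 and 3172 CPM in libraries labelled Itgb7 KO and 1656, 2369 and 1231 CPM in wild-type. Every gated sum thus lay below every sum of other enterocytes (log2 fold change -3.65 ± 0.16 SE, adjusted p = 1.52e-07). The apolipoprotein Apoa1 fell by 3.80 ± 0.24 SE on the log2 scale, the retinol binding protein Rbp2 by 3.52 ± 0.23 SE and Apoa4 by 3.24 ± 0.17 SE. Sis, which encodes sucrase-isomaltase, fell by 2.68 ± 0.15 SE. The glucose transporter Slc2a2 was lower as well (-4.05 ± 0.47 SE), with 3 UMIs in all gated cells.

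Genes of the lower villus and of the upper villus both fell. All 9 antimicrobial genes of the lower villus were called lower, with a median log2 fold change of -2.89. Among them were Reg1 (-3.39 ± 0.11 SE), the bactericidal lectin Reg3b (-2.93 ± 0.43 SE) and the cytokine Il18 (-2.89 ± 0.17 SE). Reg3b had 385, 329.7 and 181 CPM in gated cells of the libraries labelled Itgb7 KO and 3535, 60.7 and 338 CPM in those of wild-type. Wild-type library 1 stood apart there, as it did in other enterocytes, where Reg3b had 8696 CPM in it and 1449 to 4037 CPM elsewhere. Of 11 tested genes of a villus tip program, 7 were called lower and 0 higher, among them the transcription factor Creb3l3 (-3.78 ± 0.26 SE) and the keratin Krt20 (-2.27 ± 0.15 SE). Markers of the proximal gut fell in 3 of 4 tested genes and those of the distal gut also in 3 of 4. The cell cycle inhibitor Cdkn1a fell by 1.74 ± 0.13 SE.

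**Figure D3:**
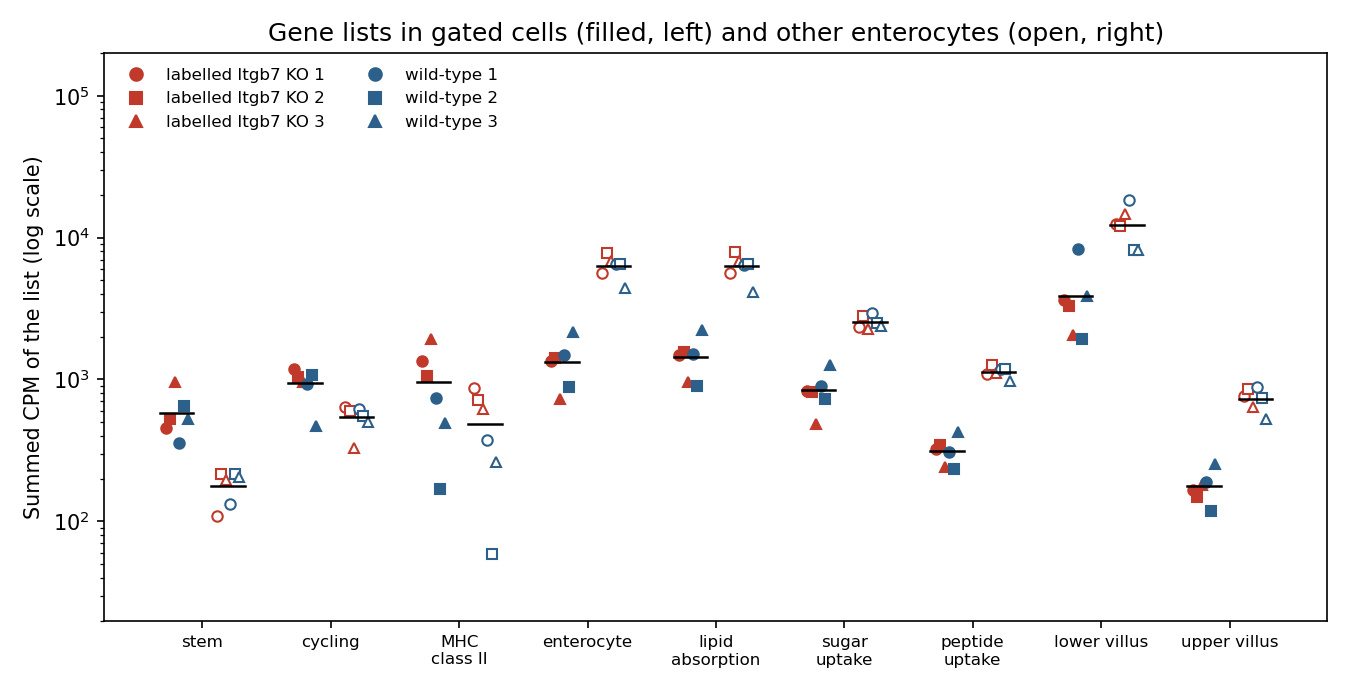
Summed CPM (y axis, log scale) of 9 gene lists in gated cells (filled symbols, left of each pair) and other enterocytes (open symbols, right), 1 symbol per library, with a bar at the mean of 6 libraries. For the enterocyte list the gated cells average 1338 CPM and the other enterocytes 6286 CPM, while for the stem list they average 580 and 179 CPM.

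The purine pathway did not rise as a whole in cells chosen for Ada and Slc28a2. Of 15 other enzymes tested on the purine list, which also holds the pyrimidine enzyme Cda, 7 were called lower. Only Dck, the deoxycytidine kinase that also phosphorylates purine deoxynucleosides, was called higher (0.84 ± 0.23 SE, adjusted p = 0.0161). Among those lower were Xdh, which encodes the xanthine oxidoreductase that makes uric acid, Gda, the guanine deaminase, and Cda, the cytidine deaminase. Xdh had 17.5, 4.52 and 0 CPM in gated cells of the libraries labelled Itgb7 KO and 6.13, 2.33 and 13.9 CPM in those of wild-type. In other enterocytes Xdh had 32.4 to 44.1 CPM in libraries labelled Itgb7 KO and 22.2 to 33.3 CPM in wild-type (log2 fold change -2.03 ± 0.26 SE, adjusted p = 0.000141). The classes did not overlap. Gda fell by 2.65 ± 0.30 SE and Cda by 1.36 ± 0.12 SE. Pnp, the purine nucleoside phosphorylase that acts on the inosine made by Ada, fell by 0.40 ± 0.10 SE (adjusted p = 0.0115).

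Among nucleoside transporters outside the gate, 1 of 5 tested was called higher and 1 lower. The equilibrative transporter Slc29a1 had 41.6, 31.6 and 60.4 CPM in gated cells of the libraries labelled Itgb7 KO and 25.4, 44.3 and 37.1 CPM in those of wild-type. It had 8.66 to 12.1 CPM in other enterocytes of the libraries labelled Itgb7 KO and 10.6 to 15.3 CPM in those of wild-type (log2 fold change 1.58 ± 0.22 SE, adjusted p = 0.00022). It was higher in gated cells in 6 of 6 libraries. The sodium-coupled Slc28a3, of the same family as Slc28a2, was lower (-1.50 ± 0.37 SE, adjusted p = 0.00987). None of the 4 ectoenzymes tested was called. The adenosine receptor Adora1 was called higher on few molecules (2.93 ± 0.76 SE, adjusted p = 0.0128): it had 3, 0 and 0 UMIs in gated cells of the libraries labelled Itgb7 KO and 3, 2 and 2 in those of wild-type. Dpp4, a peptidase that in humans binds adenosine deaminase at the cell surface, fell by 0.71 ± 0.17 SE.

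Antigen presentation divided. Of 6 tested genes of MHC class II, 4 were called higher in gated cells and 0 lower, with a median log2 fold change of 0.86. H2-Eb1, a class II β chain, had 121, 76.8 and 121 CPM in gated cells of the libraries labelled Itgb7 KO and 71.0, 11.7 and 37.1 CPM in those of wild-type. In other enterocytes it had 63.7, 40.0 and 31.6 CPM in the libraries labelled Itgb7 KO and 27.0, 3.38 and 16.8 CPM in wild-type. H2-Eb1 was higher in gated cells within each of the 6 libraries (1.06 ± 0.17 SE, adjusted p = 0.00058). The invariant chain Cd74 rose by 0.90 ± 0.17 SE. Of 12 tested genes of MHC class I, 8 were called lower and 0 higher, such as H2-Q1 (-2.83 ± 0.46 SE), one of a family of near-identical genes and uncertain for that reason. Of 17 interferon response genes, 7 were called lower and 1 higher, the membrane protein gene Ifitm3 (1.41 ± 0.12 SE). T cell and B cell genes had 0 UMIs in the gated cells. Of the myeloid list's 1439 UMIs there, 1436 were of Cd74 itself and 3 of its 5 other genes.

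The size of the contrast rested on the cells chosen as other enterocytes. Against Ada-free cells with or without Alpi, 481 genes were called higher (4.06%) and 774 lower (6.53%) of 11848 in 3 libraries, and 620 higher (5.26%) and 1087 lower (9.23%) of 11778 in 5. The 1580 cells with Ada and neither Slc28a2 nor Nt5e, set against other enterocytes in 6 libraries, had 3356 genes higher (31.2%) and 3440 lower (32%) of 10744. Those cells with Ada alone reached 419 ± 108 CPM of the stem list and 944 ± 104 CPM of the cycling list (SD, n = 6 libraries). Their enterocyte list reached 2151 ± 364 CPM. More stem and cycling RNA than in other enterocytes was thus not particular to the gated cells. Gated cells with Alpi, set against the usual other enterocytes in 5 libraries, had 187 genes higher (1.73%) and 645 lower (5.96%) of 10830. That fit held only 4 and 4 such cells in libraries 1 and 2 labelled Itgb7 KO and 15, 4 and 8 in wild-type. Its count of calls therefore also reflects fewer cells. Against Ada-free cells without Alpi, 3 genes were higher (0.0272%) and 65 lower (0.589%) of 11039. Against Ada-free cells that lacked Alpi and held at least 5 UMIs of the stem and cycling lists, 1 gene was higher (0.00938%) and 4 were lower (0.0375%) of 10663, with 399 genes at an unadjusted p under 0.05. These 5 genes are named with their values seen: Reg1 was higher (1.0 ± 0.16 SE, adjusted p = 0.00373), and the bile acid binding protein Fabp6 (-1.31 ± 0.14 SE), the hormone genes Ghrl (-2.62 ± 0.30 SE) and Gip (-2.08 ± 0.38 SE), and the Paneth cell lysozyme Lyz1 (-2.21 ± 0.36 SE) were lower. In that last contrast Ascl2 differed by 0.20 ± 0.12 SE and Fabp1 by 0.52 ± 0.18 SE on the log2 scale, neither called. Its reference cells were chosen for UMIs of lists that hold Ascl2, so their Ascl2 level was partly set by that choice. Far fewer genes were thus called against Ada-free cells without Alpi than against those with it.

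Over all cells, Ada and Slc28a2 were themselves higher where Alpi was not found and stem and cycling genes were. Cells without Alpi that held at least 5 UMIs of the stem and cycling lists had 9.95 ± 1.77 CPM of Ada, against 4.99 ± 0.875 CPM in cells with Alpi (SD, n = 6 libraries). Ada had 5.35 ± 1.11 CPM in cells above the goblet limit and 3.29 ± 1.18 CPM in cells without Alpi that held fewer than 5 stem and cycling UMIs. For Slc28a2 the levels in the same 4 sets were 4.68 ± 0.777, 2.21 ± 0.450, 3.31 ± 0.869 and 2.07 ± 0.980 CPM. In all 6 contrasts of the first set with another set, it was higher in 6 of 6 libraries (exact 2-sided sign-flip permutation tests, p = 0.03125 each, the smallest that 6 libraries allow, and 0.03125 after Benjamini-Hochberg adjustment over the 6). Ada was found in 919 of 7338 cells of the first set (12.5%, median depths of 6931 to 23513 UMIs per library), against 666 of 9835 cells with Alpi (6.77%, 6502 to 22704.5 UMIs) and 352 of 4654 cells above the goblet limit (7.56%, 5914 to 21535 UMIs).

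**Figure D4:**
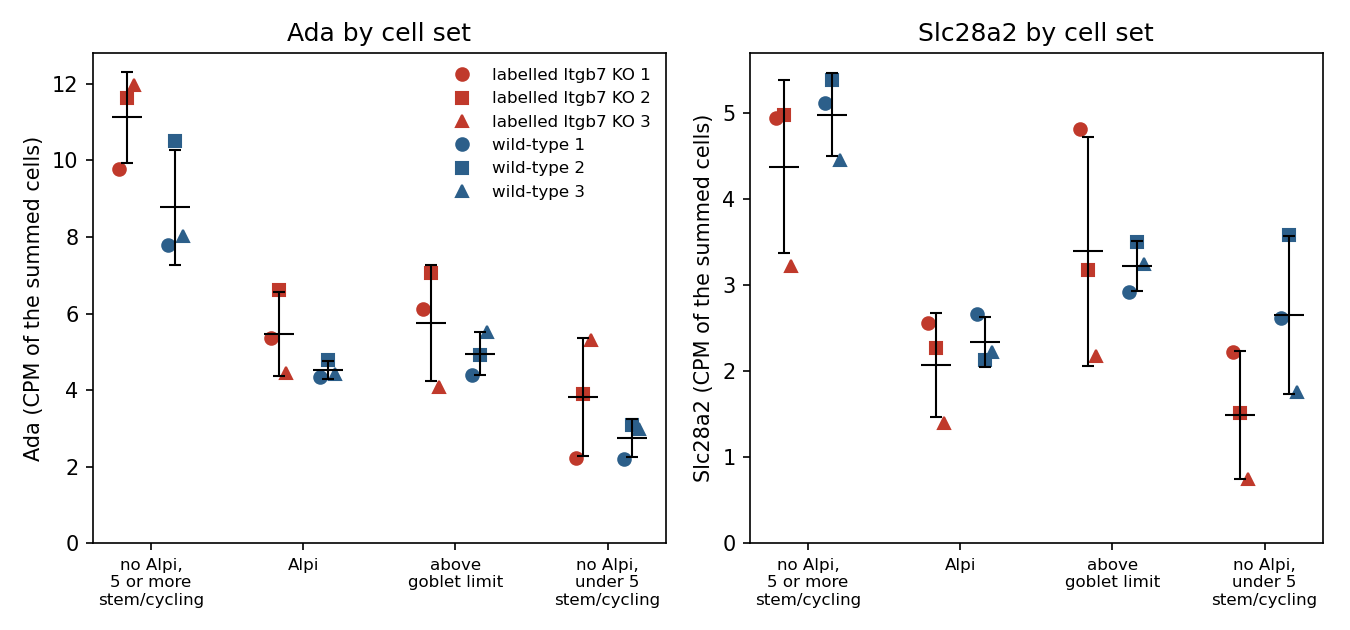
Ada (left) and Slc28a2 (right) in CPM of the summed cells (y axes) in 4 sets of cells (x axis), 1 symbol per library, with libraries labelled Itgb7 KO left of wild-type in each set and bars at mean ± SD of 3 libraries. The set without Alpi and with at least 5 stem and cycling UMIs averages 9.95 CPM of Ada over 6 libraries and the set with Alpi 4.99 CPM.

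Among cells with Alpi, both genes fell as upper-villus genes rose. In order of the upper-villus list (none, above 0 to 2, above 2 to 5, above 5 to 15 and above 15 UMIs per 10000) there were 879, 2230, 2396, 3182 and 1148 cells, of which 1, 18, 13, 4 and 0 were gated cells. Ada averaged 11.2 ± 3.41, 7.03 ± 1.61, 5.15 ± 1.72, 2.94 ± 1.04 and 1.64 ± 0.251 CPM along them (SD, n = 6 libraries). Slc28a2 averaged 3.72 ± 1.91, 2.86 ± 0.732, 2.46 ± 0.359, 1.69 ± 0.842 and 0.585 ± 0.402 CPM. Both genes were lower above 15 than at above 0 to 2 in 6 of 6 libraries (exact 2-sided sign-flip permutation test, p = 0.03125 each, the smallest that 6 libraries allow). Alpi itself had 134 ± 74.6 CPM at above 0 to 2 and 383 ± 88.6 CPM above 15, and the median depth averaged 16167 and 13558 UMIs there. In the step above 15, Ada rested on 1 to 8 UMIs per library and Slc28a2 on only 0 to 3. The lowest step held as few as 14 cells in a library and was left out of the permutation tests given here. These UMI counts thus placed neither gene at its highest in the cells with most upper-villus RNA.

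**Figure D5:**
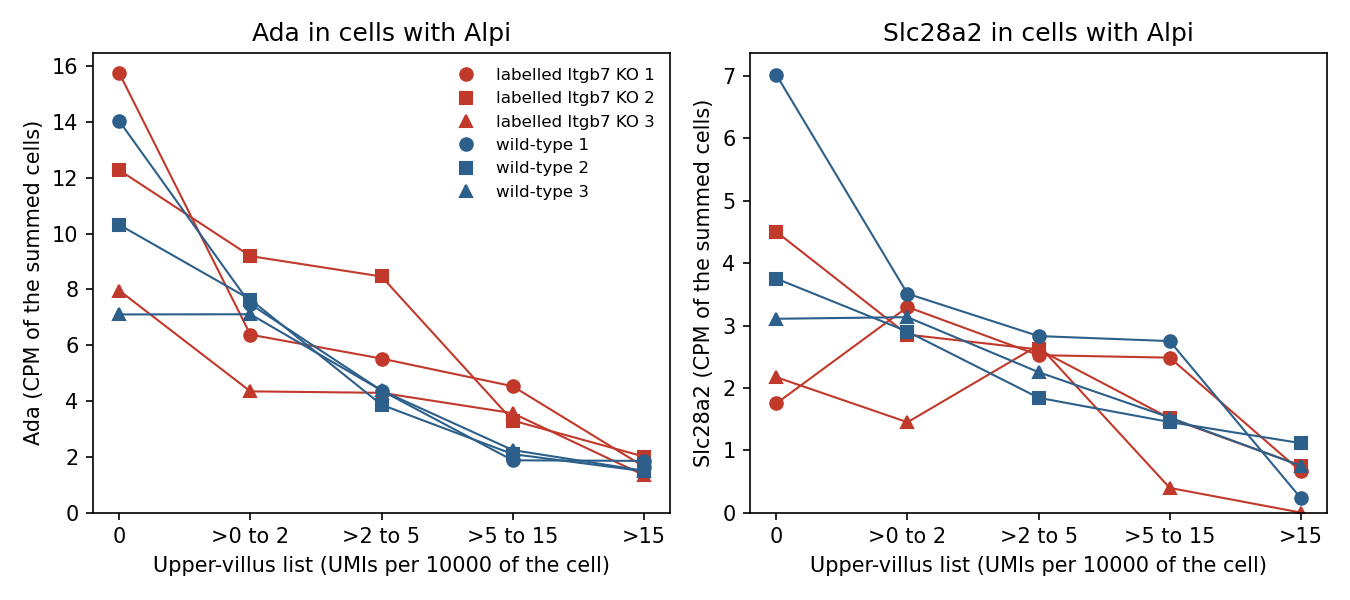
Ada (left) and Slc28a2 (right) in CPM of the summed cells (y axes) in cells with Alpi, by 5 steps of the upper-villus list in UMIs per 10000 of the cell (x axis), 1 line per library. Above 15 UMIs per 10000, Ada averages 1.64 CPM and Slc28a2 0.585 CPM, the lowest of the 5 steps for both.

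Given a cell of the stem and cycling set, Slc28a2 was about as high with Ada as without it. It had 4.62 ± 2.58 CPM in cells with Ada and 4.64 ± 0.589 CPM in cells without Ada (SD, n = 6 libraries), and was found in 78 of 919 (8.49%) and in 391 of 6419 cells (6.09%). In cells with Alpi it had 2.80 ± 1.19 CPM with Ada and 2.19 ± 0.502 CPM without. Above the goblet limit it had 4.69 ± 3.71 CPM with Ada and 3.21 ± 0.910 CPM without. These are descriptions without a test, since the gate joins the same 2 genes, and each difference was smaller than the SD with Ada.

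Between genotypes, the number of genes called in gated cells depended on the fit. The test of library 1 labelled Itgb7 KO against wild-type libraries 1 and 2 called 2 of 7245 genes higher (0.0276%) and 0 lower, with 181 at an unadjusted p under 0.05. The arm labelled Itgb7 KO was a single library there, assumed to vary like the wild-type ones, so genotype and that library cannot be told apart in it. On data simulated for this comparison, with 7265 genes and no library effect, it recovered 32% of genes changed 4-fold. Ifi27, an interferon-induced gene, had 75.2, 40.7 and 0 CPM in gated cells of the libraries labelled Itgb7 KO and 12.3, 7.0 and 18.5 CPM in those of wild-type (log2 fold change 2.69 ± 0.46 SE, adjusted p = 0.0269). It was found in 22 of 27, 6 of 15 and 0 of 2 gated cells labelled Itgb7 KO, against 9 of 33, 3 of 28 and 2 of 15 wild-type ones. The other call, Gm12280, annotated as an antisense gene on chromosome 11, had all its 30 UMIs in 1 gated cell of library 1 labelled Itgb7 KO, and the counting is not stated to use strand. With DESeq2's Wald test, DESeq2 size factors in edgeR, or without barcodes scored as doublets, 0 genes were called (22 at an unadjusted p under 0.05 for DESeq2).

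With the 5 libraries that held at least 10 gated cells, 0 of 5069 genes were called by edgeR, with 134 at an unadjusted p under 0.05. DESeq2's Wald test called 3 of 5049 genes lower (0.0594%). With the replicate number as a block, 13 genes were called higher (0.256%) and 46 lower (0.907%) in libraries labelled Itgb7 KO. Only libraries 1 and 2 formed pairs in that fit, since wild-type library 3 had no partner with enough gated cells. This left very little spread between libraries to measure, so the fit's SE and p-values leaned on spread shared over genes. Those lower held all 6 genes of the Paneth list, such as Ang4 (-4.83 ± 0.28 SE), and further α-defensin genes such as Defa5 (-5.89 ± 0.31 SE). The lower genes also held all 3 tested goblet genes outside the gate, Tff3 (-1.84 ± 0.21 SE), Spink4 (-1.70 ± 0.20 SE) and Agr2 (-1.60 ± 0.20 SE). Of the gate's own goblet genes, not counted among calls, Fcgbp (-1.41 ± 0.19 SE, adjusted p = 3.76e-10) and Muc2 (-0.78 ± 0.22 SE, adjusted p = 0.0304) were lower too. Spink4 had 635, 285 and 181 CPM in gated cells of the libraries labelled Itgb7 KO and 1585, 1001 and 1316 CPM in those of wild-type, without overlap. Guca2a, which encodes guanylin and is named after its values were seen, had 171, 126 and 0 CPM against 486, 471 and 426 CPM, also without overlap (-1.83 ± 0.19 SE). On the goblet list, the highest gated cell held 448, 458 and 600 UMIs per 10000 in wild-type libraries 1, 2 and 3. In libraries 1, 2 and 3 labelled Itgb7 KO it held 69.0, 29.7 and 9.03, and the median over 120 gated cells was 28.5. How far the lower Tff3, Spink4 and Agr2 rest on such goblet-rich cells was not tested. Of the Paneth list's 47496 UMIs in gated cells, 1 cell of wild-type library 1 held 39928 (84.1%), and this cell was also the deepest, with 178723 UMIs. In the same block fit the cholecystokinin gene Cck was lower (-4.95 ± 0.31 SE), and 973 of its 1010 UMIs in gated cells lay in 1 cell. Without 4 gated cells rich in Paneth or enteroendocrine genes, 0 of 5203 genes were called with the block (180 at an unadjusted p under 0.05). Without that block the 116 cells left also gave 0 calls in 5 libraries. The 3-library test on the cells left gave 7 genes higher (0.0962%) and 5 lower (0.0687%) of 7274.

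Agpat4, an acyltransferase of phospholipid synthesis, was called between genotypes in gated cells with the replicate block and not without it. It had 1, 1 and 0 UMIs in gated cells of the libraries labelled Itgb7 KO and 33, 17 and 1 in those of wild-type, or 1.34, 4.52 and 0 CPM against 28.9, 39.7 and 4.63 CPM. The 2 groups did not overlap, but library 2 labelled Itgb7 KO and wild-type library 3 nearly met. In the 3-library test it fell by 4.54 ± 0.87 SE on the log2 scale (adjusted p = 0.0502), and with 5 libraries by 3.71 ± 0.91 SE (adjusted p = 0.9996). With the replicate block in the same 5 libraries it fell by 3.95 ± 0.72 SE (adjusted p = 1.02e-05). Without the 4 cells rich in Paneth or enteroendocrine genes the block gave a larger log2 fold change, -4.84, but an adjusted p of 0.106. In other enterocytes it had 1.47, 1.84 and 0.786 CPM in libraries labelled Itgb7 KO and 13.5, 10.7 and 11.5 CPM in wild-type, also without a call (-3.02 ± 0.28 SE, adjusted p = 0.0981). Of MHC class II genes, 0 of 6 were called in the 3-library test, where all 6 had a positive log2 fold change with a median of 1.28, against -0.02 over all genes tested. With the replicate block in 5 libraries, 3 of 5 tested were called higher, namely Cd74, H2-Ab1 and H2-Aa. The limit given above for the spread in that fit holds for these calls and for Agpat4 too. Cd74 had 819, 749.8 and 1208 CPM in gated cells labelled Itgb7 KO, against 458, 98 and 347 CPM in wild-type ones, without overlap (1.37 ± 0.57 SE, adjusted p = 0.999). With the block Cd74 was higher by 1.48 ± 0.20 SE on the log2 scale (adjusted p = 4.74e-11), and without the 4 cells by 1.39, where its adjusted p was 0.9999. The adjusted p with the block was 0.0277 for H2-Ab1 and 0.0304 for H2-Aa, and neither was called without the 4 cells. In other enterocytes Cd74 had 553, 492 and 431 CPM in libraries labelled Itgb7 KO and 237, 28.8 and 163 CPM in wild-type (1.75 ± 0.67 SE, adjusted p = 0.932).

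No difference between genotypes passed a test for Ada or Slc28a2, the genes that set the gate in practice. In the stem and cycling set Ada had 11.1 ± 1.18 CPM in libraries labelled Itgb7 KO and 8.78 ± 1.51 CPM in wild-type (SD, n = 3 each, exact permutation p = 0.2). In cells with Alpi it had 5.46 ± 1.09 and 4.52 ± 0.233 CPM (exact permutation p = 0.2). Over 8 such tests of Ada and Slc28a2 in 4 sets the adjusted p was at least 0.533, and 0.1 is the smallest unadjusted p that 3 against 3 libraries allow. Among the 1580 cells with Ada alone, 0 of 10227 genes were called between genotypes by edgeR in 6 libraries, with 287 at an unadjusted p under 0.05. Among other enterocytes, 0 of 12091 were called by edgeR, with 380 at an unadjusted p under 0.05, while 12 were called by DESeq2's Wald test.

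The difference between genotypes was itself compared between the cell classes. In the 3 libraries of the first test, again with a single library labelled Itgb7 KO, 53 of 12094 genes had a lower log2 fold change between genotypes in gated cells than in other enterocytes (0.438%), and 0 had a higher one. In 5 libraries 56 were lower (0.473%) and 7 higher (0.0591%) of 11846, with 48 of the 53 called again. These calls too were led by α-defensin genes of the Paneth cell, near-identical copies among which reads may be split. Without the 4 gated cells rich in Paneth or enteroendocrine genes 9 genes were called, 8 of them among the 53, and DESeq2 called 6 of the 53.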

How the data were processed

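Gene expression was measured in 6 single-cell libraries, 3 labelled Itgb7 KO and 3 wild-type, grouped by their titles. For each barcode the authors deposited raw UMI counts of every gene. The submitters' processing notes name Cell Ranger 2.1.1, Seurat, bcl2fastq 2.17.1.14 and the mm10 build, and a Seurat version is not given in the sources used here. The files held 27998 genes and 26153 barcodes, with 28475253 to 76133693 UMIs per library. Of these barcodes, 3 failed the limit of 500 genes and 107 that of 25% mitochondrial UMIs, and 26045 were kept.

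The replicate was the library and not the cell, and UMI counts were added up over the cells of a class in each library. Sums were tested in R 4.3.3 with edgeR 4.0.16 (quasi-likelihood test, TMM, filterByExpr, Benjamini-Hochberg at 0.05), with DESeq2 1.42.0 as an alternative. Genes of the gate (Ada, Nt5e, Slc28a2, Alpi, the 4 goblet genes and mitochondrial genes) were not counted among calls. Gated cells and other enterocytes were compared with library as a block, genotypes without a block. CPM are counts per 1e+06 UMIs of the summed cells. Shares and CPM of cell sets were tested with exact permutation tests (SciPy 1.17.1). Doublets, droplets with more than 1 cell, were left in; an alternative left out 0.8% per 1000 barcodes, 969 in all and 6 of them gated cells, by the highest Scrublet scores (scanpy 1.11.5).

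In other enterocytes, deviations from the group means correlated at r = 0.66, 0.20 and 0.32 between same-numbered libraries. Library 2 labelled Itgb7 KO went as well with wild-type library 3 (r = 0.21). Library 3 labelled Itgb7 KO went better with wild-type library 2 (r = 0.44). Only the pair numbered 1 thus stood out. The block by replicate number is given beside the genotype test. Its pairing was taken from the titles' numbers and not from a stated litter or batch. The edgeR fits were tested on simulated data with a 4-fold change. They recovered 77% of changed genes for gated cells against other enterocytes in 3 libraries (11125 genes) and 86% in 5 (11027 genes). For the genotypes in gated cells of 5 libraries they recovered 81% (5088 genes). Unchanged genes called numbered 7, 10 and 7 in that order. The simulated counts had the same spread setting for every gene and no library effect, unlike the real sums. Recovery in the real sums may therefore be lower.

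The gate, the gene lists, the sets of cells and the rule for named genes were chosen with earlier results of these data known. Genes were named when called, up to 4 per list by size of change, up to 12 in each direction with a mean of at least 50 CPM, and up to 8 per direction by p between genotypes; the genes of the gate, Apoa4, Itgb7 and Agpat4 were always named, and the text gives a selection of these. Some named genes are not reported here. Gene positions came from GENCODE M21 and upstream sequences from RefSeq.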

Additional observations from a re-analysis of the deposited data

Results flagged for a closer look

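The comparison of the genotype difference between gated cells and other enterocytes called 53 genes, all with a lower log2 fold change between genotypes in gated cells (edgeR's quasi-likelihood test, interaction of class and genotype in 3 libraries, of which 1 was labelled Itgb7 KO). Among those with the lowest p were the Paneth cell genes Gm14851 (log2 interaction -5.40), Defa22 (-4.60), Defa5 (-5.72) and Gm15315 (-6.93), near-identical copies whose single values are uncertain.

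Defa22 had 270.0, 4.52 and 0 CPM in gated cells of the libraries labelled Itgb7 KO and 9828, 25.7 and 4.63 CPM in those of wild-type. In other enterocytes it had 4833, 17.7 and 0.917 CPM in libraries labelled Itgb7 KO and 4531, 72.4 and 11.9 CPM in wild-type. Library 1 of each group was thus far above the others in both cell classes. One gated cell of wild-type library 1 held 88.1% of that library's 45298 Paneth list UMIs in gated cells, and without the 4 gated cells rich in Paneth or enteroendocrine genes 9 genes were called, 8 of them among the 53.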

How the results depend on the processing

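The share of gated cells changed sign with at least 2 Ada UMIs (0.00288 percentage points) and ranged from -0.526 to 0.00095 when 1 library was left out. Paired by replicate number (replicate block) it was -0.255 with an exact p of 0.25, and its other alternatives kept its sign. For Ada and Slc28a2, leaving out 1 library left the ratio of the stem and cycling set over cells with Alpi at 1.87 to 2.06 and 2.04 to 2.174, and the ratio above 15 over above 0 to 2 upper-villus UMIs at 0.225 to 0.242 and 0.168 to 0.240, with p = 0.0625 each, the smallest exact p for 5 libraries.

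Genes called between gated cells and other enterocytes numbered 1859 without the library block, 1730 in wild-type alone, 1730 to 2408 leaving out 1 library, and 1506 without both libraries numbered 1 (at least 2 gated cells). With the Ada-free reference with or without Alpi they numbered 1255, 1707 and 1646 in 3, 5 and 6 libraries, and without Alpi 68, or 5 with stem and cycling genes. They were 832 for gated cells with Alpi, with 4 to 15 of these per library, and 6796 for cells with Ada alone. Against Ada-free cells without Alpi and with stem and cycling genes the log2 fold changes of Fabp1 (0.52), Apoa1 (0.37), Apoa4 (0.53) and Reg1 (1.0) changed sign, and Reg1 also against all Ada-free cells without Alpi (0.32). These references and subsets, and the tests in 5 or 6 libraries, were chosen after seeing the data. The cause was not tested.

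Genotype calls in gated cells, 2 in the report's test, were 6 without the low-count filter and 0 with DESeq2, with DESeq2 size factors, without doublet-scored barcodes, in 5 and 6 libraries, and for cells with Ada alone. Leaving out 1 of the 5 libraries gave 0 to 2. Without cells rich in Paneth or enteroendocrine genes they were 12 in 3 libraries and 0 in 5, with or without the replicate block. The replicate block gave 59 calls in 5 libraries and 10 in 6, and a block by serial number 32. In other enterocytes the count of 0 became 1 without the filter, 12 with DESeq2 and 1 with the serial block, and stayed 0 with the replicate block, which changed no call outside the genotype test in gated cells. The interaction gave 6 calls with DESeq2, 63 in 5 libraries (7 higher), 53 in 6 (3 higher), and 9 and 15 in 3 and 5 libraries without the cells rich in Paneth or enteroendocrine genes. With 20 cells per library required, no value came from thinned gates, from at least 2 Ada UMIs, from gated cells with Alpi, from libraries labelled Itgb7 KO alone, from leaving out both libraries numbered 1 in the main fits, from blocks in the 3-library genotype test or from leaving out 1 library there or in the interaction. Gated cells with Nt5e were 5 in all and were not tested against those with Slc28a2.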
